A study of Mus musculus with 3 samples.

Results

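The fibroblast growth factor (FGF) ligands and receptors of the hair cycle were examined in the open chromatin of mouse hair follicle stem cells (HFSCs). The set held 9 of the 20478 protein-coding genes measured. Its genes were listed by name and not by a measured value, with earlier results of these data known. It comprised 3 receptors (Fgfr1, Fgfr2 and Fgfr3), 4 ligands counted as epithelial (Fgf1, Fgf2, Fgf5 and Fgf22) and 2 ligands of the dermal papilla (Fgf7 and Fgf10). Each gene was followed from 20 kb before its outer start site to 20 kb after its end in GRCm38, and the position and number of peaks in that window were read in every library.

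FGFs are secreted proteins that bind receptor tyrosine kinases at the cell surface, and receptor activation is relayed to the nucleus through the RAS and MAP kinase cascade. In the hair follicle, FGF7 and FGF10 are made by the dermal papilla, the cluster of mesenchymal cells at the follicle base, and act on an epithelial splice form of FGFR2 to help start growth. FGF5 is made in the follicle epithelium late in the growth phase and helps to end it, and mice without it have long hair.

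Open chromatin was profiled by Omni-ATAC-seq, an assay whose Tn5 transposase inserts adapters into accessible DNA, using CD34+CD49f+Sca-1- cells sorted from dorsal skin of 6-month-old mice in telogen, the resting phase. There was 1 library from hair cycle-matched C57BL/6J mice (Msx2-WT, here WT) and 2 from mice homozygous for a germline knockout of Msx2 (Msx2-KO replicates 1 and 2, here KO1 and KO2), a homeobox transcription factor gene, whose cassette sits upstream of exon 2. The knockout is present in every cell of these animals and not in HFSCs alone. By the batch label, the KO libraries share a batch and WT has another, so batch and genotype cannot be told apart, no value within a batch could be had, and no test between genotypes was run. Nothing in the labels says whether libraries held 1 animal or pooled animals.

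A peak was an interval called in 1 library whose strongest summit had a q-value under 0.01, and its tags were the number of Tn5 tags at that summit. The commonest local background was 1.74 tags in WT, 0.476 in KO1 and 0.79 in KO2. By this measure WT was 3.65 times and KO2 was 1.66 times as deep as KO1. Values given over the background of a library use these numbers, and the local background at most peaks near FGF genes was higher. At regions open in all 3 libraries the median was 23, 11 and 24 tags, by which WT was about as deep as KO2. The weakest peak of each library had 9, 5 and 6 tags respectively. A call also depended on the local background. Near FGF genes, summits of up to 10, 7 and 8 tags fell below the threshold. Tags scaled from another library that exceed the weakest peak therefore do not show that a peak would have been called. Peaks stood at the promoters of 8, 7 and 9 of 10 HFSC markers and at those of 3, 2 and 3 of 7 melanocyte markers, and of 8 leukocyte markers none had one in any library. Of 6 markers of interfollicular epidermis, 3 (Ly6a, Krt10 and Ivl) had a promoter peak in WT and none in either KO library. Krt10 and Ivl were listed in KO2 below the threshold, Krt10 at a −log10 q of 1.61 beside 2.23 in WT. Ly6a encodes Sca-1, the surface protein that the sort selected against. The Msx2 promoter carried a peak in all 3 libraries, with 15, 9 and 16 tags, and since the cassette leaves the promoter in place this does not check the labels. Peaks of both KO lists are named cKO inside the lists, which departs from the labels, and those of KO1 carry a library number other than that of its label. Groups were taken from the labels, and which library KO1 holds rests on them.

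To show what the open regions near FGF genes look like, 6 of them follow, read 5′ to 3′ on the strand of their gene from GRCm38. Capitals mark motifs of 6 or 7 bases found by a search of both strands. The first 3 had a peak in all 3 libraries, at Fgfr1 intron 2 (chr8:25537150-25537449, + strand), at the Fgfr3 promoter (chr5:33721982-33722281, + strand) and at the Fgfr2 promoter (chr7:130266264-130266434, − strand), where the capitals are the nuclear factor I (NFI) motif TTGGCA.
Fgfr1 intron 2: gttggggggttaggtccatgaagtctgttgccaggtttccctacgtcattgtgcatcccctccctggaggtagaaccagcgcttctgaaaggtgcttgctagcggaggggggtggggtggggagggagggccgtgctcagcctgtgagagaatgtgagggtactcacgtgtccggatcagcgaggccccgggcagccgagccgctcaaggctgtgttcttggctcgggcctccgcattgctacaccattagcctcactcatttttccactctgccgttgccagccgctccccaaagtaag
Fgfr3 promoter: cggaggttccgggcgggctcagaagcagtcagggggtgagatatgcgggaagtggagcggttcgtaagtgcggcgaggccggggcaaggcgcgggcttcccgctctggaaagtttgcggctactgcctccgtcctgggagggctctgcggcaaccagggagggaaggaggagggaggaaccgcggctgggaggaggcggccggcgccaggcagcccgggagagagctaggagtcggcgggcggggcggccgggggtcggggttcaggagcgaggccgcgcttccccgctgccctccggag
Fgfr2 promoter: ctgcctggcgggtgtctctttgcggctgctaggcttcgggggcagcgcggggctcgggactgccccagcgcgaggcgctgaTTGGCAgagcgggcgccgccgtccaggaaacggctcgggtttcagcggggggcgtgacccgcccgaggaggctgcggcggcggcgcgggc

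The next pair had a peak in both KO libraries and none in WT. They lie before an internal start site of Fgf2 (chr3:37380559-37380754, + strand), with a TEAD motif (GGAATG) and a GATA motif in reverse (TTATCT), and in Fgfr2 intron 2 (chr7:130240440-130240739, − strand), with a RUNX motif (TGTGGT) and the same GATA motif in reverse. The last was the Fgf22 window's peak of WT alone (chr10:79764297-79764596, + strand), 9.4 kb past the Fgf22 start, and held none of the motifs searched.
Fgf2 internal promoter: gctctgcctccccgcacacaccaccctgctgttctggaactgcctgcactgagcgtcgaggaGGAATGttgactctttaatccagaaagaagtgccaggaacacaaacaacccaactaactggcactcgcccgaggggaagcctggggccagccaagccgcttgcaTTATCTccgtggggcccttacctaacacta
Fgfr2 intron 2: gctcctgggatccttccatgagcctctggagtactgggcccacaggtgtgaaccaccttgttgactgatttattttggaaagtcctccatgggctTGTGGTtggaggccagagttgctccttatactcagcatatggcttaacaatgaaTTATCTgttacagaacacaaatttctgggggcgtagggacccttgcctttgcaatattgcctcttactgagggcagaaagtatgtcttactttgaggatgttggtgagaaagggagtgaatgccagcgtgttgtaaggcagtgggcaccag
Fgf22 +9.4 kb: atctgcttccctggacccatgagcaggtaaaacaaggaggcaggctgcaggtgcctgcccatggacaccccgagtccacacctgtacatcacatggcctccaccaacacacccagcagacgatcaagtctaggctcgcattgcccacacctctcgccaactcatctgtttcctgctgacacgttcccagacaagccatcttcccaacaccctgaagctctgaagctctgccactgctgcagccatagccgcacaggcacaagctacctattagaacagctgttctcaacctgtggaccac

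The windows of the 9 genes together held 23 peaks in WT, 14 in KO1 and 22 in KO2. At least 1 peak was present in 7, 6 and 7 of the 9 windows, beside 71.8%, 61.8% and 76.2% of all protein-coding genes. A peak within 1500 bases of an own start site, here called a promoter peak, was present at 4 genes in WT, 4 in KO1 and 6 in KO2. Across all genes the shares were 48.5%, 39.1% and 55.3%, so the share of the 9 genes lay near the background in each library. By role, the 3 receptors had promoter peaks in every library except Fgfr1 in KO1, and the 2 dermal papilla ligands had none. The 4 epithelial ligands ranged from Fgf1, with 2, 2 and 3 promoter peaks, to Fgf22, with none.

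**Figure D1:**
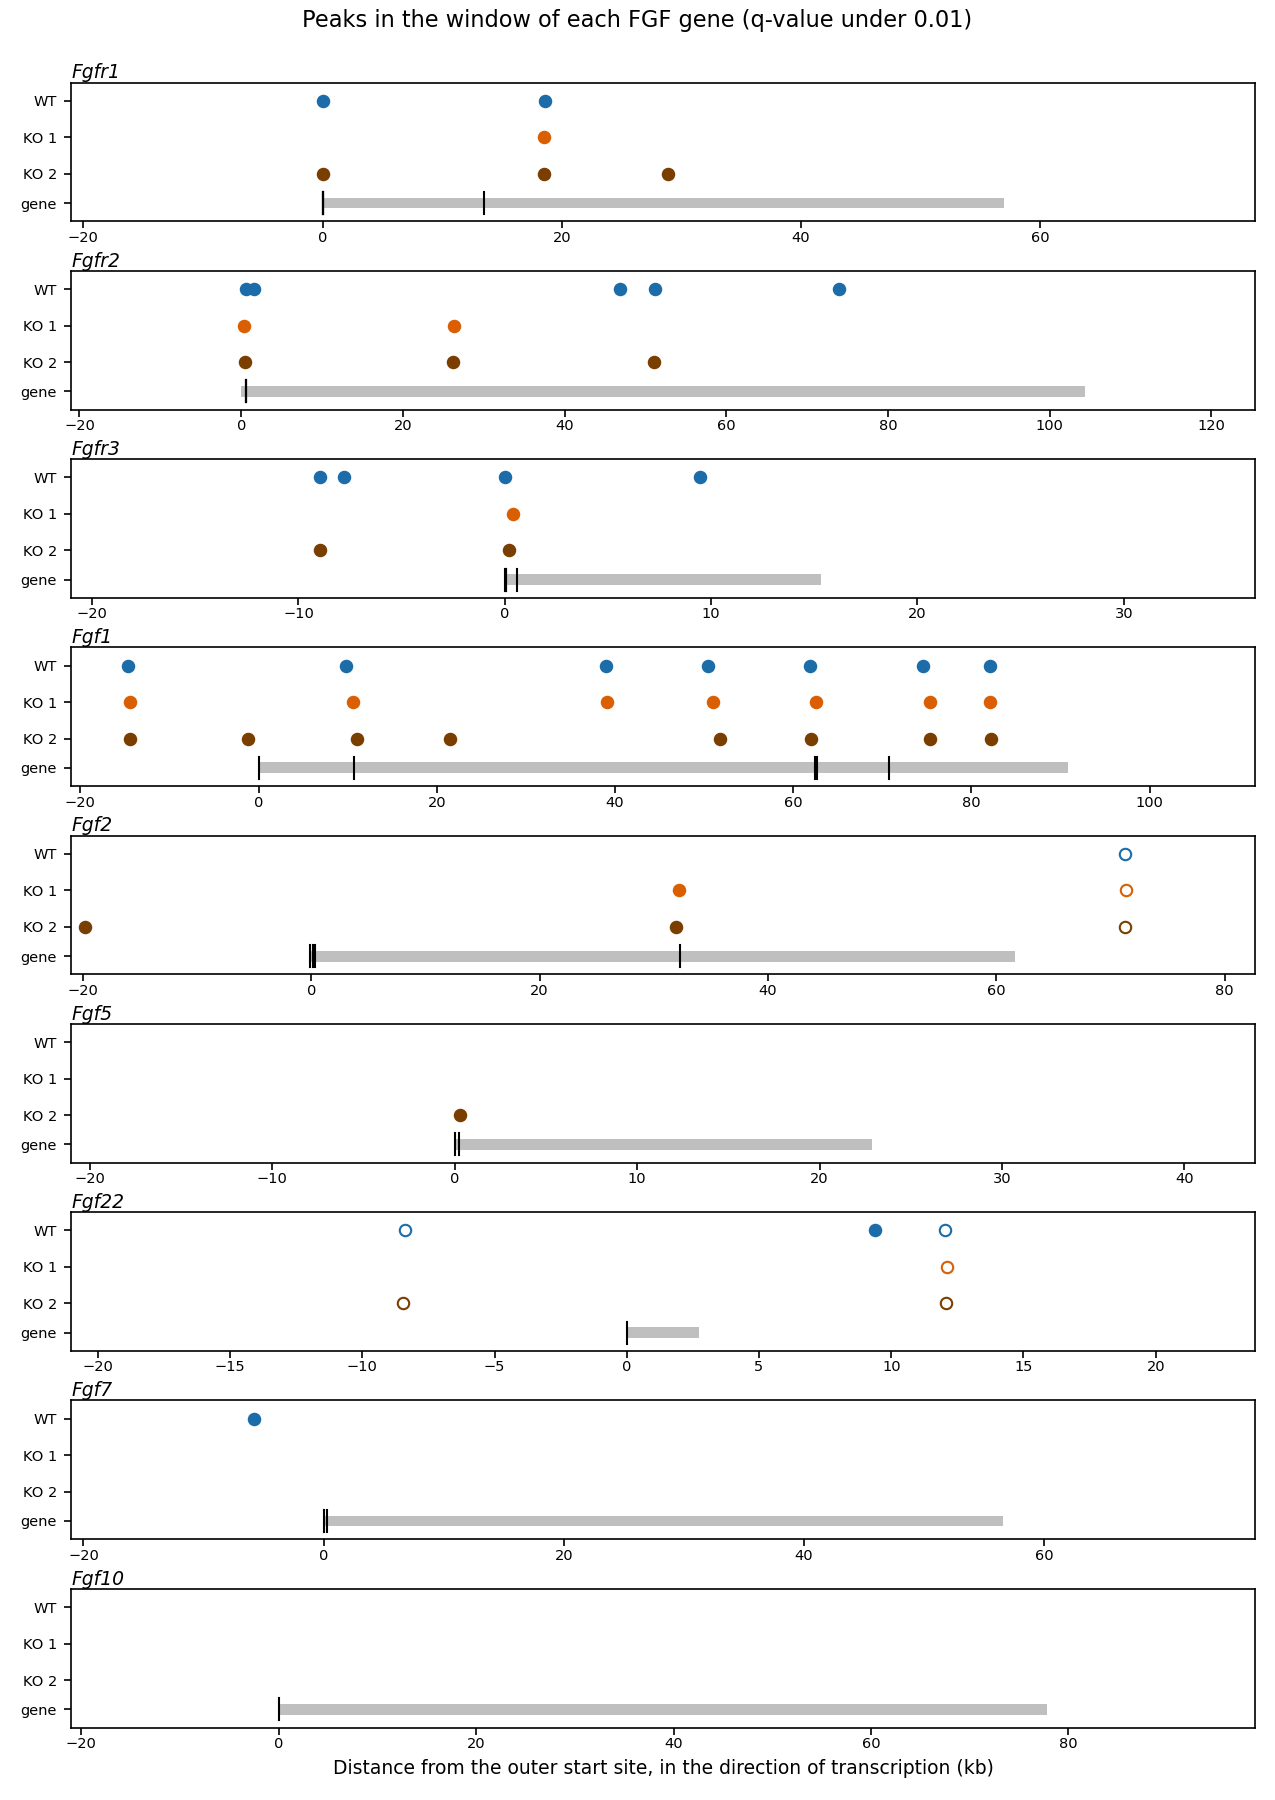
Peaks in the window of each of the 9 genes, with distance from the outer start site in kb along the gene's direction of transcription on the x axis and 1 row of points per library (WT, KO1 and KO2). The grey bar is the gene body, black ticks are start sites of its protein-coding transcripts, filled points are peaks and open points are peaks at the promoter of another gene. Fgf1 carries 7, 7 and 8 peaks spread over its whole length, while Fgf10 carries 0 in every library.

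Of the receptors, Fgfr1 (ENSMUSG00000031565.18, chr8:25518759-25575718) encodes a receptor found in mesenchyme and, at lower levels, in epithelium. Its strongest peak was not at the promoter but in intron 2, 18.5 kb past the start, the first sequence printed above. It had 27 tags in WT, 23 in KO1 and 51 in KO2. In this region the summits of the 3 libraries lay within 86 bases of each other. Over the background of each library the tags came to 15.5, 48.3 and 64.6-fold, compared with a median of 13.2, 23.1 and 30.4-fold over the 13074 regions with tags in all 3 libraries. Scaled to those medians the values were 1.17 (95% Poisson interval 0.774 to 1.71), 2.09 (1.33 to 3.14) and 2.12 (1.58 to 2.79). Both KO values were above that of WT, but the interval of WT overlapped each of theirs, and the intervals cover counting error only.

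The Fgfr1 promoter carried 19 tags in WT and 13 in KO2, with no summit listed in KO1. In KO1 these values would give 5.20 and 7.83 tags when scaled by background, and 9.09 and 5.96 when scaled by the median of shared regions. All 4 are above the weakest KO1 peak of 5 tags and the lowest number in its list, 3 tags. Whether they would pass at the local background of this promoter in KO1 was not tested. Another region, 28.9 kb past the start in the same intron, had 7 tags in KO2 and no listed summit in the other two.

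Fgfr2 (ENSMUSG00000030849.18, chr7:130162451-130266808, − strand) encodes the receptor for FGF7, FGF10 and FGF22 on epithelial cells. Its promoter was open in all 3 libraries, with 15 tags in WT, 7 in KO1 and 17 in KO2. In WT a second interval, 1.5 kb past the outer start, had 13 tags, and a single interval in each KO library overlapped both. The promoter window printed above was 76.6% G+C. The 3 values scaled to the median of shared regions were alike, at 0.652 (0.365 to 1.08), 0.636 (0.256 to 1.31) and 0.708 (0.413 to 1.13).

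Inside the gene the libraries differed. A site in intron 2, 26.2 kb past the start, had 6 tags in KO1 and 10 in KO2 and no listed summit in WT. Scaled by background, these would give 21.9 and 22.0 tags at the depth of WT. Scaled by the median of shared regions they would give 12.5 and 9.58, above the weakest WT peak of 9 tags and the lowest number in the WT list, 5 tags.

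Sites 73.9 kb and 46.8 kb past the Fgfr2 start, in introns 7 and 3, had a peak in WT alone, with 14 and 12 tags. The first was also listed in both KO libraries below the threshold, with 4 and 5 tags, so the site was listed in all 3 libraries. The second was not listed in either. A further site in intron 4, 51.1 kb past the start, had 15 tags in both WT and KO2, and 4 tags below the threshold in KO1. Of the distal sites within the gene, 2 of 4 were thus called in a single library, and 1 of those was listed in all 3.

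Fgfr3 (ENSMUSG00000054252.18, chr5:33721724-33737068) encodes a receptor of skin and follicle epithelium. The short gene had a promoter peak in every library, with 21 tags in WT, 7 in KO1 and 9 in KO2. Scaled to the median of shared regions this was 0.913 (0.565 to 1.40), 0.636 (0.256 to 1.31) and 0.375 (0.171 to 0.712), so both KO values were below that of WT with overlapping intervals. The summits were 392 bases apart, at 16 bases past the start in WT and at 408 and 225 bases in the KO libraries.

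Before the Fgfr3 start, a site at −8.9 kb had 17 tags in WT and 13 in KO2. Its neighbor at −7.8 kb had 21 tags in WT and no listed summit in either KO library, although it would scale to 5.75 and 9.55 tags in KO1 and KO2 by background and to 10.0 and 21.9 by the median of shared regions, all above their weakest peaks of 5 and 6. That interval was 202 bases wide, the shortest of the 23 WT peaks near FGF genes, whose median width was 507 bases. An intronic site 9.5 kb past the start had 12 tags in WT alone, with no listed summit in either KO library. It would scale to 3.29 and 5.45 tags in KO1 and KO2 by background, below their weakest peaks, and to 5.74 and 12.5 by the median of shared regions, above them.

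Of the epithelial ligands, Fgf1 (ENSMUSG00000036585.16, chr18:38838672-38929470, − strand) had the most peaks of the 9 genes, with 7 in WT, 7 in KO1 and 8 in KO2. FGF1, acidic FGF, binds every FGF receptor and is made by several cell types. At 5.35, 5.35 and 6.12 peaks per 100 kb its window was denser than that of 84.2%, 95.4% and 87.5% of all genes. Fgf1 accounted for 7 of 11, 7 of 10 and 8 of 14 peaks of the epithelial ligands.

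The outermost Fgf1 start carried no promoter peak in WT and KO1, and 7 tags 1.2 kb before the start in KO2. Starts inside the gene had promoter peaks in all 3 libraries. At a start nearly 11 kb inside, a region had 14 tags in WT, 13 in KO1 and 22 in KO2. At the pair of starts near 62.6 kb it had 9, 8 and 7 tags.

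The Fgf1 site with the most tags in each library lay 82.1 kb past the outer start in intron 2, with 19, 17 and 24 tags and summits within 212 bases, and in WT the site at 51.8 kb had as many. Sites at 75.4 kb (13, 11 and 20 tags), 51.8 kb (19, 8 and 14 tags) and 14.4 kb before the gene (9, 10 and 7 tags) were also called in every library. For these regions, presence in all libraries meant that the intervals shared at least 1 base, and not that the summits coincided. At 51.8 kb the summits were 1381 bases apart and at 11 kb they were 1156 bases apart, with WT intervals of 301 and 315 bases beside KO intervals of 1519 to 1674 bases. When at least 50% of each interval had to be shared, 5 of the 11 shared regions of the FGF genes remained.

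Sites called in fewer libraries had few tags, and so did the weakest of the sites called in every library. At 39.1 kb WT had 10 tags and KO1 had 5, with no listed summit in KO2. At 21.5 kb KO2 had 7 and the other libraries listed none.

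Fgf2 (ENSMUSG00000037225.13, chr3:37348477-37410106) encodes basic FGF, which is stored in the extracellular matrix and is made by several cell types. Its outer promoter was called in no library but was listed in each below the threshold, with 7, 3 and 5 tags. The internal promoter 32.2 kb past the start, printed above, was called in both KO libraries and not in WT, which made Fgf2 the 1 gene of the 9 with that pattern, beside 2.39% of all genes. Its tags were 7 in WT, 7 in KO1 and 7 in KO2. The raw tags were thus equal in the 3 libraries, while the background under them was not. Over the library background the tags came to 4.03, 14.7 and 8.86-fold. Scaled by background, the KO1 and KO2 tags would give 25.6 and 15.4 tags in WT, above its weakest peak of 9 tags. Scaled by the median of shared regions they would give 14.6 and 6.71, on either side of that peak. Batch, depth and genotype cannot be told apart in this difference between calls.

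The remaining strong peak in the Fgf2 window, 71.3 kb past the start, had 74, 52 and 83 tags and belonged to the shared promoter of Nudt6 and Spata5, genes that begin beyond the 3′ end of Fgf2. Without it the window held 0, 1 and 2 peaks.

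Fgf5 (ENSMUSG00000029337.2, chr5:98254184-98277033), the ligand that ends the growth phase, had a single peak in all. It lay at the promoter in KO2, with 6 tags. WT had 9 tags there at a −log10 q of 1.84, just under the threshold of 2, and KO1 had no listed summit. A further 5 summits in the WT window and 1 in that of KO2 were listed below the threshold, at 4 to 6 tags. The −log10 q of KO2 was 2.46, so the promoters of KO2 and WT lay close together on either side of the threshold.

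Fgf22 (ENSMUSG00000020327.4, chr10:79755051-79757795), a ligand of the same subfamily as Fgf7 and Fgf10, had no summit listed at its start in any library. The 3, 1 and 2 peaks of its window were mostly those of neighbors: the Rnf126 promoter at +12.1 kb had 36, 19 and 42 tags, and the Polrmt promoter at −8.5 kb had 15 tags in WT and 11 in KO2. The peak of WT alone at +9.4 kb had 25 tags in an interval of 277 bases over a local background of 5.13 tags, the highest local background among the distal peaks of the 9 genes. In KO1 and KO2 it would give 6.85 and 11.4 tags when scaled by background and 12.0 and 26.1 when scaled by the median of shared regions, and neither listed a summit.

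Of the dermal papilla ligands, Fgf7 (ENSMUSG00000027208.14, chr2:126034658-126091185), keratinocyte growth factor, had 1 peak in WT, of 10 tags at 5.8 kb before the start, and none in either KO library. Fgf10 (ENSMUSG00000021732.14, chr13:118714699-118792573) had none in any library over a window of 118 kb. Both promoters were listed below the threshold in KO2 alone, with 5 tags each. Windows without a peak made up 28.2%, 38.2% and 23.8% of all genes. The median window of all genes was 58.2 kb, and windows empty in all 3 libraries were not counted. How rare an empty window of the length of Fgf10 is was therefore not shown. Markers of fibroblasts and dermal papilla, cells that the sort should lack, had promoter peaks at 2, 2 and 4 of 10 genes. Summed over called promoters, their tags were 17.8, 31.5 and 55.7 times the background of each library. Those of the HFSC markers were 109, 174 and 284 times. These sums grow with the number of called promoters, which was 2, 2 and 4 here and 8, 7 and 9 for HFSC markers. The tags themselves summed to 31, 15 and 44, and to 189, 83 and 224 for HFSC markers. Pdgfra and Col1a1 were open in WT and KO2, Col1a2 and Sox2 in both KO libraries and not in WT, and Pdgfrb, Col3a1, Dcn, Lum, Twist2 and Vcan in none. The part of such cells in these values was not tested, and in sorted cells a few cells of a type cannot be told apart from weak opening in many.

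The roles were compared to ask whether HFSC chromatin was more open at receptors, which receive the signal, than at ligands made in the follicle epithelium or in the dermal papilla. Receptors had promoter peaks at 3, 2 and 3 of 3 genes, epithelial ligands at 1, 2 and 3 of 4, and dermal papilla ligands at 0 of 2 in each library. Receptor windows held 3.71 peaks per 100 kb (95% Poisson interval 1.85 to 6.63) in WT, 1.35 (0.367 to 3.45) in KO1 and 2.70 (1.16 to 5.31) in KO2. Epithelial ligand windows held 3.25 (1.62 to 5.82), 2.96 (1.42 to 5.44) and 4.14 (2.26 to 6.95). Dermal papilla ligand windows held 0.466 (0.0118 to 2.60), 0 (up to 1.72) and 0 (up to 1.72). The dermal papilla ligands were lowest in every library, and their interval overlapped that of the receptors in all 3. It was clear of that of the epithelial ligands in KO2 and overlapped it in the other libraries. The clear interval in KO2 rested on promoters of other genes. With those left out, the epithelial ligands held 3.25 peaks per 100 kb in KO2, the density they had in WT. That density had an interval from 1.62, below the dermal papilla limit of 1.72.

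The intervals of receptors and epithelial ligands overlapped in every library, and their order was not the same in all: receptors were denser in WT and epithelial ligands in both KO libraries. The median over all genes was 1.97, 1.25 and 2.25 peaks per 100 kb. Without Fgf1 the epithelial ligands held 1.93, 1.45 and 2.90 peaks per 100 kb, each within its main interval, and without both Fgf1 and Fgf2 they held 2.84, 0.947 and 2.84. Genes of a role are not replicates, and the intervals treat peaks as independent counts.

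**Figure D2:**
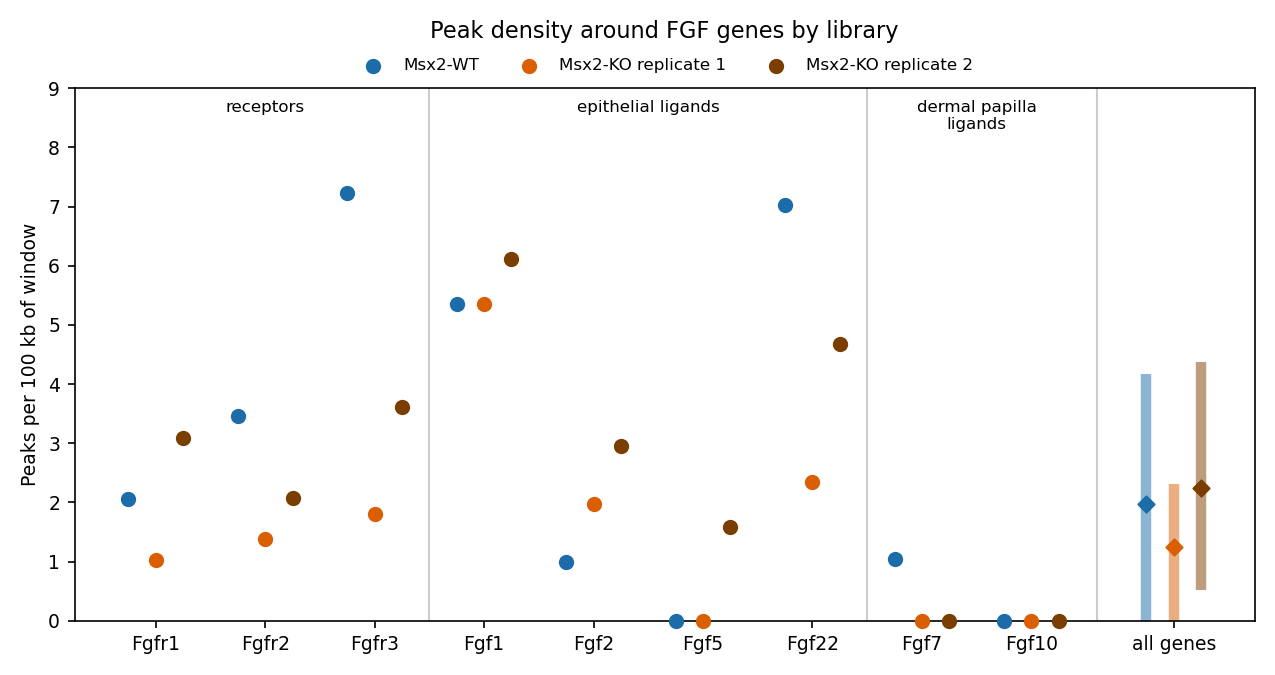
Peaks per 100 kb of window for each gene and library, with the genes ordered by role along the x axis. At the right, diamonds give the median over all 20478 genes and bars the range from the lower to the upper quartile. Fgf1 lies above the upper quartile in all 3 libraries, while Fgf10 is at 0 in all 3.

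By promoter state, Fgfr2, Fgfr3 and Fgf1 were open in all 3 libraries, which is 3 of 9 beside 36.3% of all genes. Fgf2 was open in both KO libraries alone, Fgfr1 in WT and KO2, and Fgf5 in KO2 alone. No promoter was open in WT alone, beside 2.12% of all genes.

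Merged across libraries, the peaks formed 29 regions. Of these, 11 were present in all 3 libraries, or 37.9%, beside 27.6% of the 47562 regions of the genome. A further 2 were present in both KO libraries and not in WT, or 6.90% beside 7.66%, and 6 in WT alone, or 20.7% beside 18.7%. Both shares were near the background. The 6 regions of WT alone were all distal and comprised 2 at Fgfr2, 2 at Fgfr3, 1 at Fgf22 and 1 at Fgf7. A further 5 were called in KO2 alone, or 17.2% beside 28.0%, and none in KO1 alone, beside 2.85%. Thinned by background to the depth of KO1, in a single random draw, regions of WT alone numbered 0 and those of both KO libraries 5. The shares of all regions under this thinning were not counted, so the shift cannot be read as particular to the FGF genes. By the shared-region medians of 23 and 11 tags, WT exceeded KO1 by less than this thinning took. The interfollicular epidermis markers moved with the regions of WT alone, and their part in those regions was not tested. Summed over called promoters alone, their tags were 21.3 times the background in WT, and neither KO library had such a promoter called. Below the threshold, KO2 listed Krt10 and Ivl with 5 tags each, where WT had 10 and 15. WT listed Lor and Flg below it with 6 each. Set against the backgrounds of 1.74 and 0.79 tags, Krt10 was no higher in WT than in KO2. Set against the shared-region medians of 23 and 24 tags, it was higher in WT.

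At the 11 regions open in all 3 libraries, the median over background was 10.9, 23.1 and 25.3-fold, compared with 13.2, 23.1 and 30.4-fold over all shared regions. Only 3, 5 and 3 of the 11 were above the median of all shared regions, and the highest was the neighboring promoter of Nudt6 and Spata5. Of the 9 regions that were not promoters of other genes, the intronic Fgfr1 site was the strongest in each library. After scaling, WT lay below both KO libraries at 6 regions and above both at 2, beside 42.5% and 34.0% of all shared regions. At none of the 11 was the interval of WT clear of both KO intervals.

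**Figure D3:**
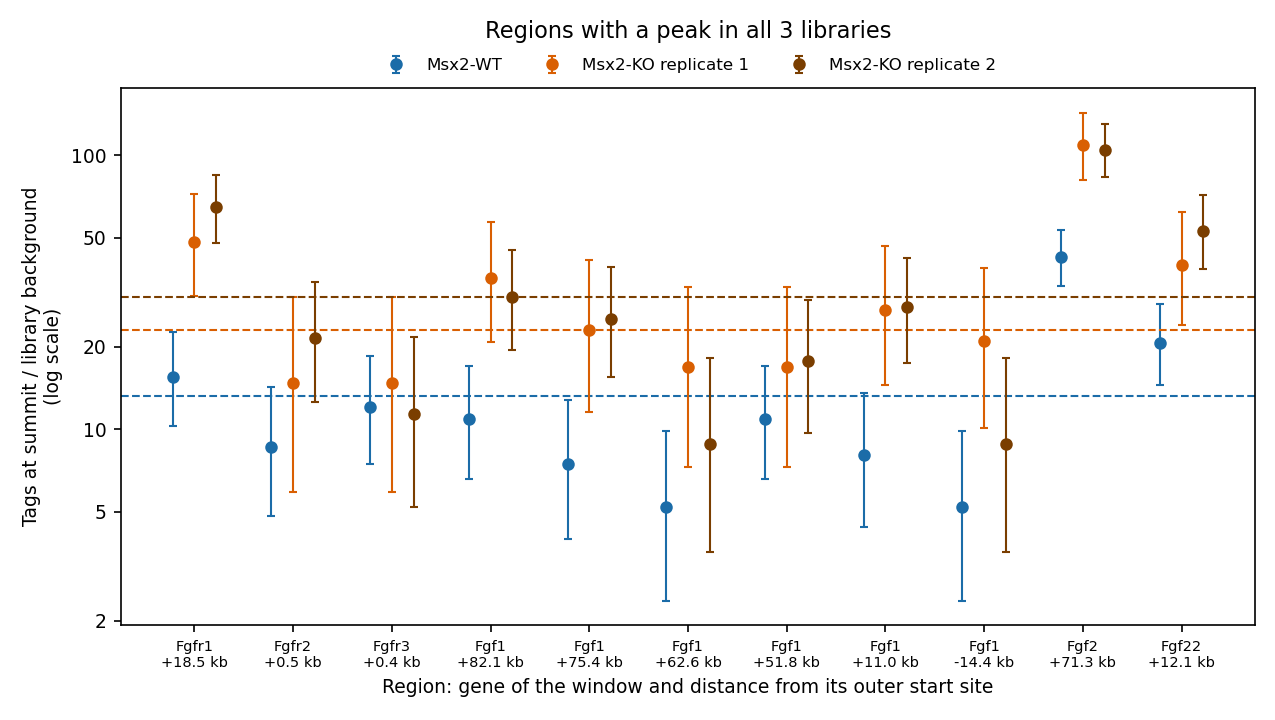
Tags at the summit over the background of the library, on a log scale, for the 11 regions with a peak in all 3 libraries, named by gene window and distance from the outer start site. Bars are 95% Poisson intervals of the tag number and dashed lines are the medians over all shared regions, at 13.2, 23.1 and 30.4-fold. The Fgfr1 site at +18.5 kb and the Nudt6 and Spata5 promoter in the Fgf2 window stand above the dashed lines in every library, as does the Rnf126 promoter in the Fgf22 window.

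To place the 9 genes within their pathway, promoter peaks were counted at 43 further genes. Among the other FGF ligands, 3, 1 and 5 of 16 had a promoter peak. Fgf18, a ligand of the resting follicle, was open in all 3 libraries with 11, 9 and 13 tags. Fgf9 and Fgf21 were open in WT and KO2, and Fgf13 and Fgf20 in KO2 alone. These 5 and the receptors that follow were named after their values were seen. Of 4 further receptors and co-receptors, Fgfrl1, which encodes a receptor without a kinase domain, was open in all 3 libraries with 26, 15 and 30 tags, and Fgfr4, Kl and Klb were open in none.

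Genes that carry the signal inside the cell were open nearly throughout. The relay from FRS2 to the MAP kinases had promoter peaks at 13, 12 and 14 of 14 genes, and the target and feedback genes of the Sprouty, Spred and Etv families with Dusp6 and Il17rd at 9, 6 and 9 of 9. None of the 43 was open in both KO libraries and closed in WT, or open in WT alone, beside 2.39% and 2.12% of all genes. The state of Fgfr2, Fgfr3 and Fgf1 was shared by 20 of the 43, that of Fgfr1 by 6, that of Fgf5 by 3, that of Fgf2 by 0 and the closed state of Fgf22, Fgf7 and Fgf10 by 14. Over all 20478 genes these states were held, in the same order, by 7434, 2039, 1363, 490 and 8643. An open promoter does not show that a gene was transcribed.

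**Figure D4:**
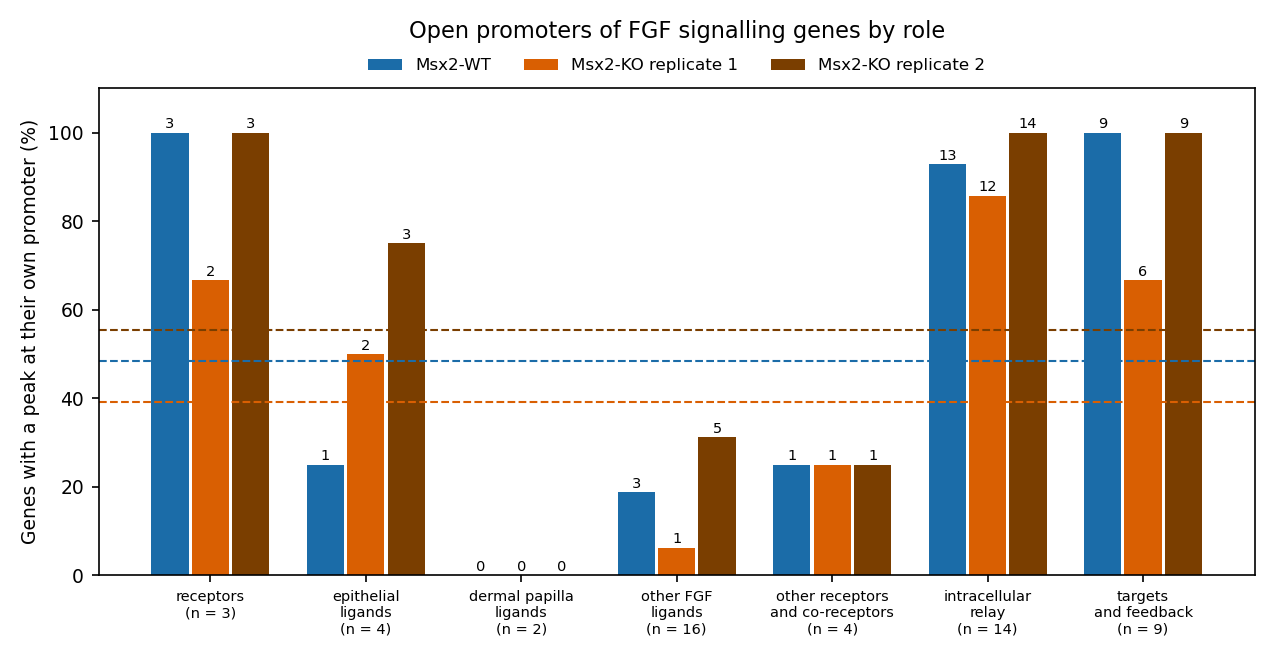
Percent of genes with a peak at their own promoter by role and library, with the number of genes above each bar and the size of each list under it. Dashed lines give the share of all genes, at 48.5%, 39.1% and 55.3%. The relay and target lists lie above the lines in every library, and the dermal papilla ligands and the other FGF ligands lie below.

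The base composition followed the kind of site. In 300 bases around the summit, the 5 own promoters had a median G+C of 70.7% and the 12 distal sites of 51.7%, beside medians of 53%, 53.3% and 51% over all peaks of the 3 libraries. The regions of Fgf1 were left out of the sequence work. Of the 20 regions searched, 6 held the NFI motif TTGGCA, 4 the RUNX motif TGTGGT, 3 the GATA motif AGATAA, 1 the AP-1 motif TGANTCA and 1 the TEAD motif GGAATG, on either strand. The shares of all WT peaks with these motifs were 22.4%, 18.1%, 12.5%, 16.0% and 16.9%. The homeodomain core TAATTA, the letters of the family to which Msx2 belongs, was in none of the 20, beside 5.17%, 7.67% and 8.95% of all peaks of the 3 libraries, and the p53 family core ACATGT was also in none, beside 6.87%, 5.10% and 6.52%.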

How the data were processed

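The data were 3 Omni-ATAC-seq peak lists of sorted HFSCs. According to the methods, reads were trimmed (Trimmomatic), mapped to GRCm38 (BWA-MEM), stripped of mitochondrial reads and passed to MACS2, library by library, by the authors. Duplicates were kept, so tags are not independent molecules. The submitters' processing notes also name Partek, and the MACS2 version is not given in the sources used here. The authors deposited for each summit a fold enrichment (a ratio of tags plus 1 over local background plus 1), a −log10 p and a −log10 q. The deposited score column was not used. The lists extend to a p-value of 0.01, and summits with a −log10 q above 2 were kept here, which left 29817, 18518 and 37012 peaks. Totals of reads are not in the lists, so depth was taken as the commonest local background.

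The whole tag number at each summit followed from the deposited fold together with its −log10 p and was found for at least 99.9% of summits. The solution was tested on simulated data. Exact Poisson intervals of 95% cover counting error only. Gene bounds came from RefSeq GRCm38.p6, because in GENCODE M21 a single Fgfr2 transcript starts far upstream and stretches the gene to 2961 kb. Start sites were those of basic protein-coding GENCODE M21 transcripts. Peaks sharing at least 1 base were merged into regions.

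The 9 genes, the lists and the motifs were chosen with earlier results of these data known. All 9 genes were named. The rule for other pathway genes, to name those whose promoter in both KO libraries departed from WT, found none, and those named in the text were chosen after their values were seen. Sequences were printed for 6 regions outside promoters of other genes, in the order all libraries, both KO, WT alone, a choice narrowed after values were seen. Fgf1 sequence is not reported here. Alternatives were stricter, looser, equal-length and depth-thinned lists, other windows, promoter widths and overlaps, leaving out each KO library, and leaving out genes. GENCODE gene bounds and leaving out Fgf1 alone were added after seeing the data. Software was pysam 0.24.0, matplotlib 3.10.9, scipy 1.17.1, pandas 2.3.3, numpy 2.4.6 and Python 3.11.15.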

Additional observations from a re-analysis of the deposited data

How the results depend on the processing

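No paired analysis was possible because no result comes from a test. Windows of 10 and 50 kb, every summit counted, neighboring promoters left out, Fgf1 left out alone and GENCODE bounds moved no density beyond its counting interval. Counts of genes with a promoter peak have no such interval. At a promoter width of 500 bases they were 3, 4 and 6 in WT, KO1 and KO2. At 3000 bases, and with placement by overlap of the interval, they were 4, 4 and 6. The dermal papilla ligands had fewer peaks per 100 kb than receptors and epithelial ligands in all 3 libraries under all 12 settings. Receptors were denser than epithelial ligands in 8 of 12 settings in WT, 1 of 12 in KO1 and 2 of 12 in KO2.

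At a −log10 q of at least 5, own promoters were open at 2, 1 and 3 genes, receptors held 1.69 peaks per 100 kb in WT and 0.337 in KO1, dermal papilla ligands 0 in WT, and 4 regions were in all libraries and 1 in both KO alone. With every deposited peak kept, receptors held 8.09 in WT and 7.42 in KO2, epithelial and dermal papilla ligands 8.58 and 4.20 in WT, with 17 regions in all libraries and 33 in WT alone. With lists of equal length, own promoters were open at 2 genes in WT and 3 in KO2, epithelial ligands held 2.07 in KO2, dermal papilla ligands 0 in WT, and 5 regions were in all libraries. Thinned to the shallowest depth, WT had 2 open own promoters and 1.01, 1.18 and 0 peaks per 100 kb at receptors, epithelial and dermal papilla ligands, with 5 regions in all libraries, 5 in both KO alone and 0 in WT alone. Thinning left fewer tags in WT by construction, and for the other moves the cause was not tested.

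With the outer start alone, 2 promoters were open in KO1. With all promoter peaks left out, epithelial ligands held 1.78 in KO2, and with Fgf1 and Fgf2 left out 0.947 in KO1. At 50% reciprocal overlap, 5 regions were in all libraries, 7 in both KO alone and 15 in WT alone. Over the pair of fits that leave out 1 KO library, regions in all remaining libraries numbered 12 to 15, those of KO without WT 2 to 7, and those of WT alone 7 to 10. These classes need only the remaining KO library, so their counts follow from the main classes and are no separate check. Without KO1, the 7 KO regions absent from WT were the 2 of both KO libraries and the 5 of KO2 alone. Without KO2, the 10 regions of WT without KO were the 6 of WT alone and the 4 of WT and KO2.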
